A study of Homo sapiens with 6 samples.

Results

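Polycomb proteins keep genes silent through a pair of chromatin-modifying assemblies. Polycomb repressive complex 2 (PRC2), with EZH2 as its methyltransferase and SUZ12 as its scaffold, methylates histone H3. Polycomb repressive complex 1 (PRC1), built on the E3 ligases RING1 and RNF2, attaches ubiquitin to histone H2A. In the canonical form of PRC1, BMI1 partners the ligase, a CBX protein such as CBX2 reads methylated histone H3, and a polyhomeotic protein (PHC1, PHC2 or PHC3) polymerises through its SAM domain and thereby clusters PRC1-bound chromatin.

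The data described here are the values of PHC2, of its paralogues PHC1 and PHC3, and of 6 further Polycomb genes (BMI1, RING1, RNF2, CBX2, EZH2 and SUZ12), 9 genes in all, in BRCA2 knockout and wild-type cells. A gene counted as measured if a probe set carried its symbol and no other. This left 7 of the 9 genes, among 13139 genes measured on the array. The probe set of PHC1 also carries the symbol of another gene, and RNF2 has no probe set in the annotation used, so neither was analysed here. PHC2 was chosen because it was much lower in the knockout, so its difference is given as a description without a test, and the other genes were chosen by name as its paralogues and partners.

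Both groups are HCT116, a human colon carcinoma line, grown in the same medium without a treatment. The knockout cells are BRCA2-/-, made from the line by gene targeting of each BRCA2 allele in turn, and lack this mediator of homologous recombination, while the wild-type cells came from the ATCC stock. Each genotype was measured on 3 whole-transcript arrays, which the labels call technical replicates, so that p-values here reflect array-to-array spread, which may be purely technical. The labels do not say whether the knockout is 1 clone, and with 1 line per genotype the loss of BRCA2 cannot be told apart from any other difference between the lines. BRCA2 itself was not analysed here, so the genotypes were not checked against the targeted gene.

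The arrays differed in overall level, with median log2 values of 7.41, 7.80 and 7.41 in knockout arrays 1, 2 and 3, and 7.71, 7.36 and 7.48 in wild-type arrays 1, 2 and 3. Knockout array 2 and wild-type array 1 therefore stood above the others, and results that follow these arrays are named below. Over all probe sets, knockout array 2 correlated more closely with wild-type array 1 (r = 0.924) than with knockout arrays 1 (0.876) and 3 (0.893). Markers of colon epithelium were uneven in level in both genotypes. KRT18, an epithelial keratin gene, was between 12.24 and 12.33 in knockout arrays and between 11.95 and 12.05 in wild-type arrays, and EPCAM, an epithelial adhesion gene, was at 9.75 or above in knockout arrays and at 9.47 or above in wild-type arrays. Several intestinal genes were low, among them VIL1, which encodes villin and averaged 5.82 in knockout and 5.58 in wild type. CDH17, an intestinal cadherin gene, averaged 5.05 in knockout and 4.44 in wild type. By mean over the 6 arrays, CDH17, VIL1, KRT20 and CDX1 lay at percentiles 7.28, 17.9, 21.5 and 24.0 of the 13139 measured genes, near the leukocyte gene PTPRC at 16.8. The intestinal genes LGALS4 and CDX2 lay higher, at percentiles 31.9 and 58.6, and CDX2 averaged 8.20 in knockout and 7.73 in wild type. All 15 markers had a higher mean in the knockout, and 0 passed the test. The arrays did not overlap for 7 of them (46.7%), where 12.0% of all probe sets, and 1854 of the 13139 genes, separated in that direction. The largest differences were those of ELF3, an epithelial transcription factor gene (1.16 ± 0.24, adjusted p = 0.125), and CDH1, the E-cadherin gene (1.15 ± 0.24, adjusted p = 0.127). With array weights both passed, ELF3 at an adjusted p of 0.0345 and CDH1 at 0.0242, and CDH1 also passed with a variance trend (adjusted p = 0.00205). Over the alternatives the adjusted p ran from 0.0345 to 0.648 for ELF3 and from 0.00205 to 0.651 for CDH1. The list mean ran from 8.76 to 9.20 in knockout arrays and from 8.39 to 8.67 in wild-type arrays. Of 14 measured markers of leukocytes, fibroblasts, endothelium, nerve and liver, 11 were higher and 3 lower, also with 0 calls, and their mean ran from 6.10 to 6.76 in knockout arrays and from 5.81 to 6.59 in wild-type arrays. Among these, NCAM1, a neural adhesion gene, differed by -4.46 through a single value of -4.73 on knockout array 1. That value also pulled down the mean of 6.10 on this array, and the mean without NCAM1 was not computed. VWF, an endothelial gene, differed by 1.30 ± 0.62 (adjusted p = 0.464). COL1A1, a collagen gene, differed by 1.10 ± 0.26 (adjusted p = 0.159), with all knockout arrays above the wild-type arrays. The median difference was 0.41 for these markers and 0.39 for those of colon epithelium, against 0.07 over all genes. The part of either set of markers in the Polycomb values was not tested.

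Promoter sequences are shown first for PHC2, the gene with the low knockout value, and for PHC3, its measured paralogue. RefSeq (GRCh38.p14) places PHC2 on the minus strand of chromosome 1 with 2 annotated starts that lie 81196 bases apart, and the array gave a single value for the gene, so the starts could not be told apart. Each window holds the 250 bases before a start, printed 5′ to 3′ on the minus strand, and capitals mark CACGTG, the palindromic E-box hexamer that basic helix-loop-helix factors can bind. The windows are chr1:33431096-33431345 (upstream start of PHC2), chr1:33349900-33350149 (downstream start of PHC2) and chr3:170181734-170181983 (PHC3).
PHC2 upstream start: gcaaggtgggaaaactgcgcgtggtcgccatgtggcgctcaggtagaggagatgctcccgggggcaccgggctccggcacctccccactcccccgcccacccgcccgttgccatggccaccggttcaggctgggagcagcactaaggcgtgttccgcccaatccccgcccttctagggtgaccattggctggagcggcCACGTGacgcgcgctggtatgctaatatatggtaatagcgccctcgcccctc
PHC2 downstream start: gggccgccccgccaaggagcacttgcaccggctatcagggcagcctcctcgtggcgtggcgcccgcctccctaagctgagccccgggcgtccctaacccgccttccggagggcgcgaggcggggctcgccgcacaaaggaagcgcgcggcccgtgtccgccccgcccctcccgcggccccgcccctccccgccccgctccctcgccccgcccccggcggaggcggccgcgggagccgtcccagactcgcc
PHC3 start: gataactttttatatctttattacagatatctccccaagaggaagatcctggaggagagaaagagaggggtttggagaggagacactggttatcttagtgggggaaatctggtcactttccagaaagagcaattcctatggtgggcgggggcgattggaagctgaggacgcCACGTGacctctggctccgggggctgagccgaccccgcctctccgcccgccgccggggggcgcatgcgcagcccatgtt
The hexamer, looked for after these windows had been read, begins 52 bases before the upstream start of PHC2 and 79 bases before that of PHC3, and is absent from the window of the downstream start of PHC2. It stood in 3 of the 12 windows found for 8 of the 9 genes, the third at BMI1, against 6.32% of 34943 windows of all genes. The dinucleotide CG occurs 21 times in the upstream and 36 times in the downstream window of PHC2 and 13 times in that of PHC3, against a median of 11 over all windows. These letters are a description of the windows and say nothing of which factor acts there.

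The first question was how the polyhomeotic genes differed between the genotypes. PHC2 was at 6.44, 5.76 and 5.64 in knockout arrays 1, 2 and 3, against 8.81, 8.65 and 9.04 in wild-type arrays 1, 2 and 3 (log2 values). All knockout arrays lay below all wild-type arrays, and the arrays of each genotype lay within 0.80 of each other in the knockout and 0.39 in the wild type. The mean was 5.95 ± 0.43 in knockout and 8.84 ± 0.19 in wild type (SD, n = 3 each), a log2 difference of -2.89, or 7.40-fold lower. Of 13139 genes, 36 had a more negative difference. All 6 PHC2 values were above 4, the floor used as an alternative, which is not a measured background. The knockout mean of PHC2 was near those of VIL1 (5.82) and the leukocyte gene PTPRC (5.87). Whether PHC2 stood above background in the knockout, and whether background limits the 7.40-fold difference, was not tested.

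PHC3 encodes the paralogue that was measured, and its difference did not pass the test. PHC3 was at 8.66, 9.49 and 7.77 in knockout arrays 1, 2 and 3, against 9.55, 8.59 and 9.10 in wild-type arrays 1, 2 and 3. The genotypes overlapped, knockout array 3 was the lowest of the 6, and the arrays of highest overall level, knockout array 2 and wild-type array 1, were also the highest for PHC3 within their genotype. The difference was -0.44 ± 0.48 (SE, limma adjusted p = 0.748), with a 95% interval from -1.58 to 0.70. This interval runs from 0.334 to 1.62 times the wild-type level. An increase in PHC3 above 1.62-fold, or a decrease to below 0.334 times, therefore lay outside it. Increases and decreases within these limits could not be told apart from no change. With each array centred on its median the difference was -0.47 and the interval ran from -1.39 to 0.45. Whether PHC1 differed was not measured, so a compensating increase could be looked for in PHC3 alone.

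**Figure D1:**
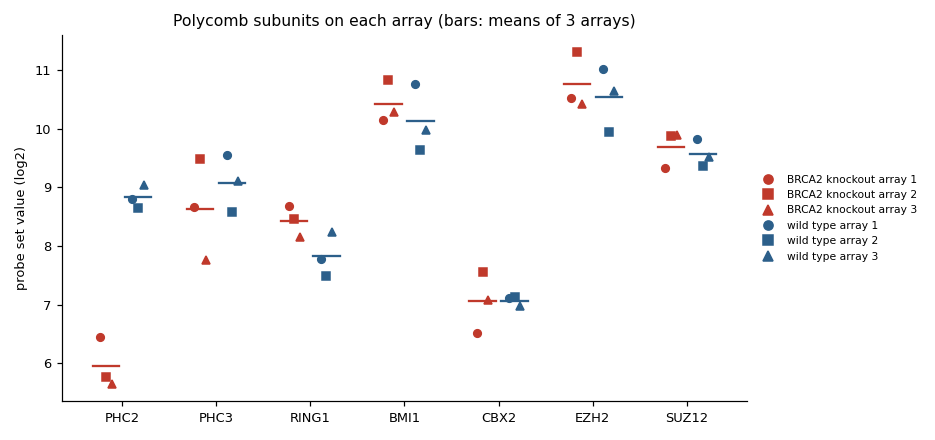
Log2 probe set value (y axis) of the 7 measured Polycomb subunits (x axis) on each array, with BRCA2 knockout arrays in red on the left of each pair, wild-type arrays in blue on the right, symbols for the array number and bars for the means of 3 arrays. PHC2 is the one gene here whose knockout arrays (5.64 to 6.44) lie apart from the wild-type arrays (8.65 to 9.04).

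The other subunits of PRC1 did not pass the test either. In limma, 111 of all 19458 probe sets (0.570%) had an adjusted p under 0.05, and the smallest difference among them was 1.56 on the log2 scale, so no smaller change was called in that fit. Of the 6 measured subunits besides PHC2, 0 passed, 0 had an unadjusted p under 0.05, 4 had a higher mean in the knockout and 2 a lower one, and their median difference was 0.17, against 0.07 over all genes. Of all 13139 genes, 1089 were higher and 689 lower at an unadjusted limma p under 0.05. None of the 6 had arrays without overlap between the genotypes, where 19.7% of all probe sets and 21.2% of the 13139 genes did.

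RING1, the measured E3 ligase of PRC1, had the lowest unadjusted p of these 6 (0.0898). It was at 8.68, 8.46 and 8.15 in knockout arrays 1, 2 and 3, against 7.78, 7.49 and 8.24 in wild-type arrays 1, 2 and 3. Knockout array 3 lay just below wild-type array 3, and the other knockout arrays lay above all wild-type arrays. The difference was 0.59 ± 0.30 (adjusted p = 0.494), with a 95% interval from -0.12 to 1.31, which reaches up to 2.47-fold higher.

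BMI1 encodes the subunit that stimulates the ligase. BMI1 was at 10.16, 10.84 and 10.29 in knockout arrays 1, 2 and 3, against 10.76, 9.64 and 9.99 in wild-type arrays 1, 2 and 3. The genotypes overlapped, and the highest value of each again fell on knockout array 2 and wild-type array 1. The difference was 0.30 ± 0.37 (adjusted p = 0.782), with an interval from -0.58 to 1.17. With 1 array left out it ran from 0.056, without wild-type array 2, to 0.61, without wild-type array 1.

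CBX2 encodes the chromodomain subunit that binds methylated histone H3. CBX2 was at 6.52, 7.56 and 7.09 in knockout arrays 1, 2 and 3, against 7.11, 7.13 and 6.97 in wild-type arrays 1, 2 and 3. Knockout arrays 1 and 2 lay on opposite sides of all wild-type arrays, which were within 0.15 of each other. The difference was -0.02 ± 0.32 (adjusted p = 0.987), with an interval from -0.78 to 0.74.

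The PRC2 genes EZH2 and SUZ12 gave small differences. EZH2 was at 10.53, 11.31 and 10.43 in knockout arrays 1, 2 and 3, against 11.02, 9.95 and 10.65 in wild-type arrays 1, 2 and 3. Its range within each genotype exceeded the difference between them, which was 0.22 ± 0.39 (adjusted p = 0.852), with an interval from -0.70 to 1.14. SUZ12 was at 9.33, 9.88 and 9.89 in knockout arrays 1, 2 and 3, against 9.83, 9.36 and 9.52 in wild-type arrays 1, 2 and 3. The difference was 0.13 ± 0.29 (adjusted p = 0.885), with an interval from -0.55 to 0.80. For SUZ12 the arrays of both genotypes covered nearly the same span.

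Centring each array on its median changed the spread within a genotype in both directions. It narrowed the range over the wild-type arrays to 0.61 for PHC3, 0.76 for BMI1, 0.72 for EZH2 and 0.11 for SUZ12, against 0.96, 1.12, 1.08 and 0.47 as deposited. It widened the range of PHC2 to 1.07 over the knockout arrays and 0.46 over the wild-type arrays, against 0.80 and 0.39 as deposited, and that of CBX2 over the wild-type arrays to 0.37, against 0.15. It moved the differences themselves little, to -2.91 for PHC2, 0.57 for RING1, 0.28 for BMI1, -0.04 for CBX2, 0.19 for EZH2 and 0.10 for SUZ12. After centring, too, 0 of the 6 subunits besides PHC2 passed the test. Knockout array 2 and wild-type array 1 remained the highest of their genotype for PHC3 (9.21 and 9.36), BMI1 (10.56 and 10.57) and EZH2 (11.04 and 10.84). These were the subunits with that order as deposited, so centring did not remove it.

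**Figure D2:**
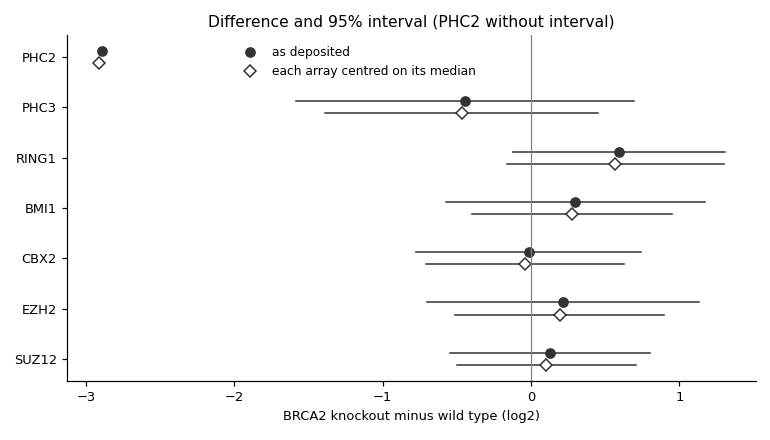
Difference in log2 value, BRCA2 knockout minus wild type (x axis), for the 7 measured subunits (rows), as deposited (filled circles) and with each array centred on its median (open diamonds), where lines are 95% intervals of the limma fit and PHC2, chosen for its difference, has none. All intervals shown span 0, and both treatments of the values put PHC2 near -2.9 (-2.89 and -2.91).

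The remaining Polycomb genes were then described from lists drawn up with earlier results of these data known. Of 41 measured genes outside the 9 above, 22 were higher and 19 lower in the knockout, and 0 passed the test. At an unadjusted p under 0.05, 1 was higher and 2 were lower, against 1089 higher and 689 lower of all 13139 genes. The arrays did not overlap for 6 of the 41, or 14.6%, against 19.7% of all probe sets and 21.2% of the 13139 genes. For 27 of the 41, knockout array 2 and wild-type array 1 were both the highest of their genotype, or 65.9%, against 39.0% of all genes, the same order as the overall level of the arrays. Whether that order remained after centring was not computed for the 41. The part of the overall level in the differences below was not tested beyond the centred values.

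Other canonical PRC1 subunits and SAM-domain relatives of the polyhomeotic proteins were divided. Of 5 measured, 3 were higher and 2 lower, with a median of 0.20, against 0.07 over all genes. The largest differences were those of the X-linked SAM-domain genes, 0.72 ± 0.42 for SCML1 (adjusted p = 0.544) and -0.59 ± 0.46 for SCML2 (adjusted p = 0.649). SCML1 averaged 6.91 ± 0.47 in knockout and 6.20 ± 0.66 in wild type, and SCML2 averaged 5.54 ± 0.41 in knockout and 6.13 ± 0.82 in wild type (SD, n = 3 each). In both the genotypes overlapped. With 1 array left out, the SCML1 difference ran from 0.39, without wild-type array 2, to 1.05, without wild-type array 1. That of SCML2 ran from -0.85, without wild-type array 3, to -0.11, without wild-type array 1.

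Variant PRC1 replaces the CBX and PHC subunits with RYBP or YAF2 and with other partners. Of 17 measured genes of these complexes, 13 were higher and 4 lower (median 0.24), and 0 passed the test. Of all 13139 genes, 7184 were higher and 5955 lower (median 0.07). The largest difference was in BCORL1, which encodes a corepressor related to BCOR that joins the PCGF1 form of the complex. BCORL1 was at 6.32, 6.97 and 5.74 in knockout arrays 1, 2 and 3, against 8.37, 7.82 and 8.02 in wild-type arrays 1, 2 and 3. The knockout arrays all lay below the wild-type arrays, as those of 7.70% of all probe sets and of 930 of the 13139 genes did. The difference was -1.73 ± 0.37 (adjusted p = 0.130), and it passed the test with a variance trend (adjusted p = 0.0269) and with array weights (adjusted p = 0.0196), in a range of 0.0196 to 0.565 over the alternatives. PCGF1, which encodes the RING-finger partner in that form, differed by -0.56 (adjusted p = 0.488), and BCOR by 0.15. RYBP, whose product takes the place of CBX proteins, was at 9.06, 9.33 and 9.50 in knockout arrays 1, 2 and 3, against 8.84, 8.34 and 8.84 in wild-type arrays 1, 2 and 3. All knockout arrays were above the wild-type arrays, as those of 12.0% of all probe sets were. The RYBP difference was 0.62 ± 0.28 (adjusted p = 0.432).

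PRC2 genes besides EZH2 and SUZ12 were mostly lower. Of 10 measured, 9 were lower and 1 higher, with a median of -0.51, or -0.53 with each array centred on its median, against 0.07 and 0.05 over all genes. The 9 included LCOR at -0.005 and EZHIP at -0.16, and 5955 of all 13139 genes were lower. No gene of the list passed the test. At an unadjusted p under 0.05 there was 1 in each direction, against 1089 higher and 689 lower of all 13139 genes. The list mean was 7.94, 8.43 and 7.65 in knockout arrays 1, 2 and 3, against 8.71, 8.08 and 8.43 in wild-type arrays 1, 2 and 3, so knockout array 2 was above wild-type array 2 and the genotypes overlapped. Without knockout array 2 and wild-type array 1, 8 of the 10 were lower (median -0.60, against 0.04 over all genes).

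PHF19, which encodes a Polycomb-like protein that guides PRC2 to chromatin, had the largest difference of the list. PHF19 was at 8.10, 8.25 and 7.68 in knockout arrays 1, 2 and 3, against 9.07, 9.05 and 9.005 in wild-type arrays 1, 2 and 3. The knockout arrays all lay below the wild-type arrays. The difference was -1.03 ± 0.26 (adjusted p = 0.189), which passed with array weights (adjusted p = 0.0412), in a range of 0.0412 to 0.696 over the alternatives. EZH1, the paralogue of EZH2, averaged 7.48 ± 0.86 in knockout and 8.42 ± 0.61 in wild type (SD, n = 3 each), a difference of -0.94 ± 0.51 (adjusted p = 0.513), and its arrays overlapped. With 1 array left out it ran from -1.30, without knockout array 2, to -0.47, without knockout array 3. EED, the core subunit that binds methylated histone H3, differed by -0.53, and the histone-binding subunit gene RBBP7 by -0.72. The exception was AEBP2, which encodes a zinc finger accessory subunit. AEBP2 was at 9.81, 9.75 and 9.65 in knockout arrays 1, 2 and 3, against 9.12, 8.83 and 9.23 in wild-type arrays 1, 2 and 3. Its knockout arrays all lay above the wild-type arrays, with a difference of 0.68 ± 0.25 (adjusted p = 0.342).

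Enzymes that remove Polycomb marks, their partners and DNA-binding Polycomb-related factors were divided into 5 higher and 4 lower among 9 measured (median 0.05), and 0 passed the test. L3MBTL1, which encodes a chromatin-compacting MBT protein, differed by -0.59 ± 0.30 (adjusted p = 0.495), and SFMBT1, also an MBT protein gene, by 0.56 ± 0.34 (adjusted p = 0.557). KDM6A, the X-linked demethylase gene that opposes PRC2, differed by -0.05, with values from 5.70 to 6.90 in knockout arrays and from 4.96 to 7.58 in wild-type arrays.

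**Figure D3:**
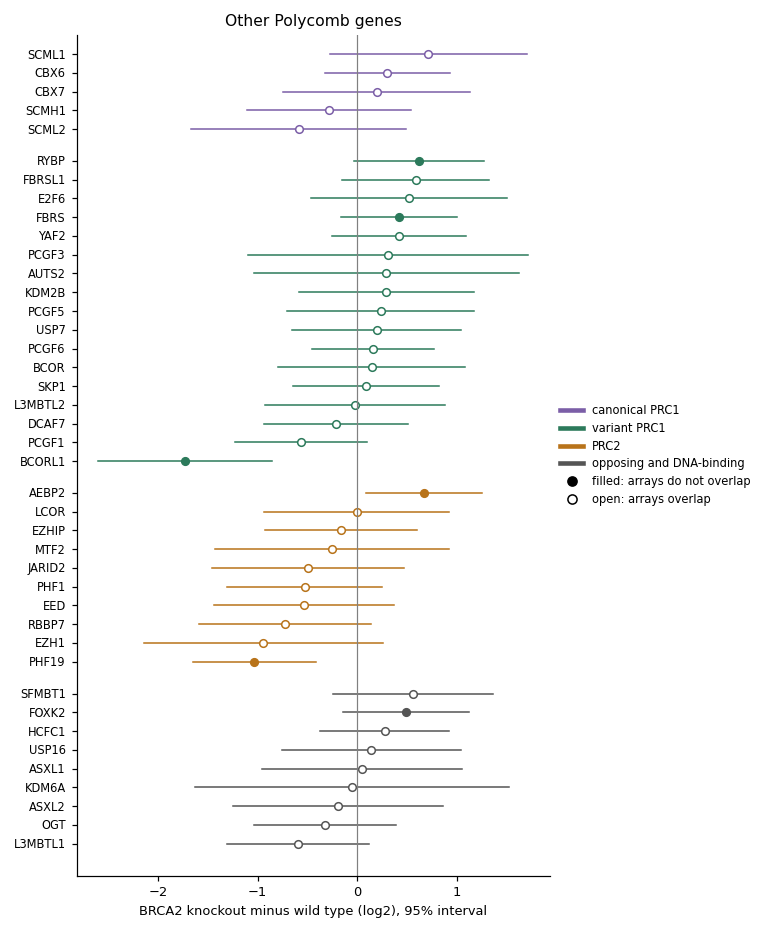
Difference in log2 value, BRCA2 knockout minus wild type (x axis), with its 95% interval in the limma fit, for the 41 other Polycomb genes (rows), coloured by list. Filled points mark the 6 genes whose arrays do not overlap between the genotypes, with BCORL1 (-1.73) and PHF19 (-1.03) on the low side and 9 of the 10 PRC2 genes left of 0.

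HOX genes are the classical targets of Polycomb silencing, and colon cells express part of the clusters. Of 39 HOX genes, 19 had a probe set of their own. Of these, 11 were higher and 8 lower in the knockout (median 0.13, against 0.07 over all genes), and 0 passed the test. At an unadjusted p under 0.05, 3 were higher and 1 was lower, against 1089 higher and 689 lower of all 13139 genes. The arrays did not overlap for 6 HOX genes, all of them higher, while 12.0% of all probe sets, and 1854 of the 13139 genes, separated in that direction. These 6 were HOXA2, HOXB2, HOXB9, HOXB13, HOXC9 and HOXD8, and they came from all 4 clusters.

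HOXA2, an anterior gene of its cluster, had the largest difference. HOXA2 was at 6.49, 7.20 and 6.13 in knockout arrays 1, 2 and 3, against 5.73, 4.70 and 5.04 in wild-type arrays 1, 2 and 3. All knockout arrays lay above the wild-type arrays. The difference was 1.45 ± 0.40 (adjusted p = 0.216), which passed with array weights (adjusted p = 0.0469), in a range of 0.0469 to 0.667 over the alternatives. HOXB2 was at 6.49, 6.86 and 6.64 in knockout arrays 1, 2 and 3, against 5.58, 4.84 and 6.14 in wild-type arrays 1, 2 and 3, a difference of 1.15 ± 0.37 (adjusted p = 0.283). HOXB9 averaged 10.89 ± 0.14 in knockout and 10.35 ± 0.09 in wild type (SD, n = 3 each), a difference of 0.54 (adjusted p = 0.423). HOXD13, the last gene of its cluster, went the other way, at -0.84 ± 0.35 (adjusted p = 0.396), with 1 knockout array inside the wild-type range.

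**Figure D4:**
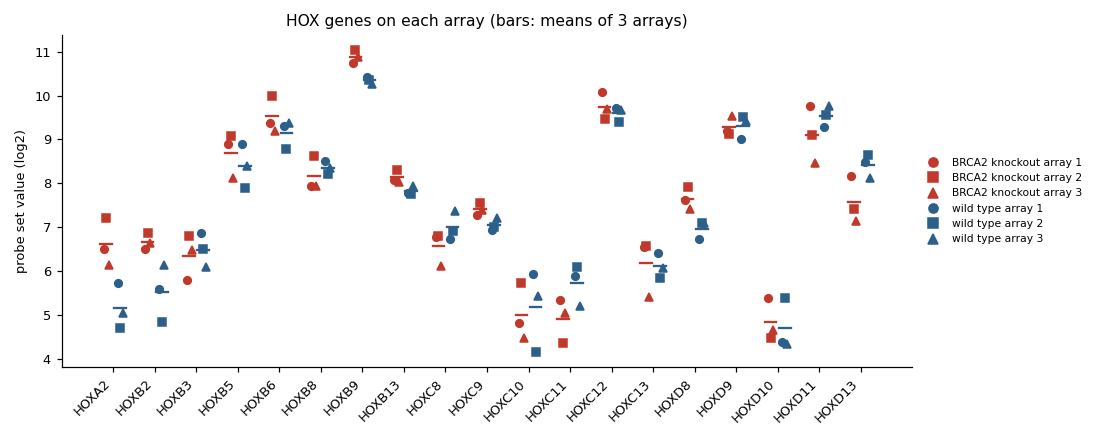
Log2 probe set value (y axis) of the 19 measured HOX genes (x axis, by cluster) on each array, with BRCA2 knockout arrays in red on the left of each pair, wild-type arrays in blue on the right and bars for the means of 3 arrays. HOXA2 and HOXB2 show the widest gaps, with knockout means of 6.61 and 6.66 above wild-type means of 5.16 and 5.52.

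Other developmental regulators that Polycomb silences in stem cells had 18 of 22 measured members higher and 4 lower, with a median of 0.32 against 0.07 over all genes, and 0 passed the test. Of all 13139 genes, 7184 were higher. The marker lists above leaned the same way, with 11 of 14 markers of other cells (median 0.41) and all 15 of colon epithelium (median 0.39) higher. The lean was therefore not particular to these regulators. Without knockout array 2 and wild-type array 1, 14 of the regulators were higher and 8 lower (median 0.27). The arrays did not overlap for 2, or 9.09%, both higher, against 12.0% of all probe sets and 1854 of the 13139 genes in that direction. These were TBX3, a T-box repressor gene (difference 1.20 ± 0.40, adjusted p = 0.292), and PAX6, a paired-box gene of eye and endocrine development (0.93 ± 0.37, adjusted p = 0.380). The largest differences by size were those of MEIS1, a HOX cofactor gene, and ZIC1, a zinc finger gene, and both had values under 4. MEIS1 was at 5.92, -7.87 and 3.24 in knockout arrays 1, 2 and 3, against 3.81, 4.10 and 3.04 in wild-type arrays 1, 2 and 3. Its difference of -3.22 rested on knockout array 2 and became 0.93 when it was left out and 0.61 with a floor of 4 on all values. ZIC1 differed by -1.99 ± 1.23 (adjusted p = 0.563), which shrank to -0.58 once low values were raised to 4. The list mean was lowest on the arrays of highest overall level, at 6.84, 6.11 and 6.70 in knockout arrays 1, 2 and 3, against 6.01, 6.69 and 6.53 in wild-type arrays 1, 2 and 3. The mean of knockout array 2 was pulled down by the MEIS1 value of -7.87, and the mean without MEIS1 was not computed.

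The genes beside PHC2 on chromosome 1 were examined next, to see whether its low value was shared along the chromosome. The list took the 10 measured genes on each side in RefSeq order. Of these 20, the knockout was higher for 12 and lower for 8, and 0 passed the test. Their median difference was 0.14, against 0.07 over all genes. Without knockout array 2 and wild-type array 1 they were divided into 10 and 10 (median -0.02). TRIM62, a ubiquitin ligase gene and the nearest measured gene on 1 side, was at 6.54, 7.23 and 5.56 in knockout arrays 1, 2 and 3, against 6.83, 6.34 and 6.48 in wild-type arrays 1, 2 and 3. ZSCAN20, a zinc finger gene and the nearest measured gene on the other side, was at 6.26, 6.25 and 6.11 in knockout arrays 1, 2 and 3, against 5.73, 6.35 and 5.95 in wild-type arrays 1, 2 and 3. Both overlapped between the genotypes, and their differences were -0.11 for TRIM62 and 0.20 for ZSCAN20. The largest differences of the 20 were -1.27 ± 0.44 for the testis kinase gene TSSK3 (adjusted p = 0.310), the farthest of them on its side, and 0.73 ± 0.30 for NHSL3 (adjusted p = 0.392). NHSL3 was the single neighbour whose arrays did not overlap, 5% of the 20 against 19.7% of all probe sets and 21.2% of the 13139 genes.

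**Figure D5:**
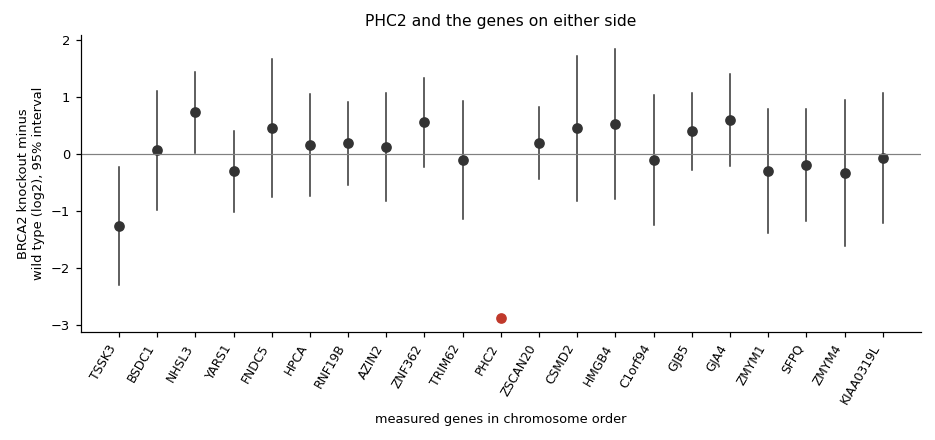
Difference in log2 value, BRCA2 knockout minus wild type (y axis), with its 95% interval in the limma fit, for PHC2 (red, no interval) and the 10 measured genes on each side in chromosome order (x axis, not to scale). PHC2 lies at -2.89 and its 20 neighbours between -1.27 and 0.73.

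The genes most like PHC2 over the 6 arrays were found by the Euclidean distance between log2 values centred on each gene's mean, among 13138 other genes. They were the zinc finger gene ZNF804A (distance 0.71), the cell adhesion gene CLMP (0.80), the secretogranin gene SCG2 (0.94), the metalloprotease gene ADAM19 (1.06) and FAAH (1.09), which encodes an enzyme that breaks down fatty acid amides. The knockout minus wild-type differences were -2.56 for ZNF804A, -2.84 for CLMP, -2.29 for SCG2, -3.07 for ADAM19 and -2.15 for FAAH. Since the likeness was taken from the same arrays these are a description. The knockout means of ZNF804A (3.91) and CLMP (3.83) were under 4. With a floor of 4 their differences were -2.29 and -2.57, while those of SCG2, ADAM19 and FAAH did not change. Of the 5 genes, FAAH lies on chromosome 1 and none is a listed Polycomb gene. The nearest listed Polycomb genes were BCORL1, at a distance of 1.79 and rank 45, and PHF19, at 2.37 and rank 203. Of the 6 measured subunits set beside PHC2, PHC3 was the nearest, at 3.31 and rank 2554.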

How the data were processed

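Gene expression was measured on 6 Affymetrix whole-transcript arrays, 3 of BRCA2 knockout and 3 of wild-type HCT116 cells. The authors deposited 1 log2 value for each of 19458 probe sets per array. Per the submitters' processing notes, the tools were RMA and R 2.11.1 and the build was hg18. Their settings are not given in the sources used here. Log2 was taken as the unit from the range of the values, whose highest per array was 13.97 to 14.14. Array medians differ, so the deposited values do not share a common distribution, and which steps of RMA were run is not given. All columns were used. Precision is limited by having 3 arrays per genotype.

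The platform annotation named 13301 probe sets with 1 symbol and 2044 with several, and 4113 were unnamed here. Symbols were updated through gene identifiers against RefSeq (GRCh38.p14), where 13280 were found. That assembly differs from hg18 and served for names, gene order and promoter sequences. Where a gene had several probe sets, that with the highest mean stood for it.

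The comparison used lmFit and eBayes of limma 3.58.1 in R 4.3.3 over all probe sets, without a filter or a block, with Benjamini-Hochberg adjustment and a threshold of 0.05. Intervals are 95% intervals of that fit. All adjusted p-values are from limma. The code was tested on simulated data. Named were the 9 genes, of each list the called genes or otherwise the 2 of largest difference, and the 5 genes most like PHC2. Any further gene was picked for mention with its values in view. The genes and lists were chosen with earlier results of these data known. Alternatives were other normalizations, a floor of 4, leaving out the dimmest 30%, other variance models, array weights, the test without moderation, a replicate block and leaving out arrays.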

Additional observations from a re-analysis of the deposited data

How the results depend on the processing

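None of the 6 measured subunits besides PHC2 passed the test under any of the 16 alternatives run. The PHC2 difference ran from -3.13 to -2.73, and that of PHC3 from -0.87 to -0.01 with each array left out in turn, negative throughout. The sign of near-zero differences changed when an array was left out, with ranges of -0.27 to 0.25 for CBX2 and -0.079 to 0.46 for EZH2. The MEIS1 difference ran from -5.96 to 0.93 with 1 array left out, and was 0.61 with values under 4 set to 4 and 1.01 without both arrays of highest median. Of the other 41 Polycomb genes, 1 was called with a variance trend and 2 with array weights. The count of probe sets called, 111 as reported, was 175 with median centring, 174 with quantile normalization, 184 without the dimmest 30%, 169 with values under 4 set to 4, 396 with a variance trend, 778 with array weights, and 24 to 63 with 1 array left out. Leaving out knockout array 2 together with wild-type array 1 gave 7. With the replicate number as a block, 3 probe sets were called. Deviations from the group means correlated at -0.24, -0.43 and 0.06 between arrays of the same number. The highest correlation of any such pair of arrays was 0.49, between knockout array 2 and wild-type array 1. Such deviations cancel out within a genotype, which constrains these correlations, so they cannot decide which arrays, if any, shared a batch. The causes of these shifts were not tested beyond the smaller number of arrays or probe sets that some settings use. The difference of PHC1 could not be computed, and no subunit had a further probe set of its own to compare. BMI1 was also named on 1 probe set that carries several symbols, which was not used. With 3 arrays per genotype, the smallest p of an exact test is 0.1.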
